A study of Mus musculus with 10 samples.

Results

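The immunoglobulin gene segments described here are the parts from which antibody genes are assembled, measured as RNA in whole mouse jejunum. They were taken as all rows of functional immunoglobulin biotype, pseudogenes left out, with a mean of 10 or more normalised reads over 10 libraries. They were thus chosen by their mean level, so which segments are abundant is a description. This gave 150 segments among 226 immunoglobulin rows at any level and 24368 genes in the table. The heavy chain locus Igh on chromosome 12 held 61 V segments and 7 constant genes. The kappa locus Igk on chromosome 6 held 73 V segments, 1 constant gene and 1 J segment, and the lambda locus Igl on chromosome 16 held 3 V segments, 3 constant genes and 1 J segment. Just inside the limit were Ighv1-20 at 11.4, Ighv1-58 at 11.4 and Igkv3-3 at 11.8 normalised reads, and just outside it were Ighv5-12 at 9.97, Ighv1-84 at 9.69 and Igkj4 at 9.66.

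The study asked how the RNA-binding protein HuR, encoded by Elavl1, acts in fat absorption by the gut. It compared 5 libraries of proximal jejunum labelled cKO, from mice in which HuR was to be deleted in the intestinal epithelium alone, with 5 libraries labelled WT, from littermates. The sources used here do not give the promoter that drives the deletion, the deleted exons, or the age and sex of the mice. Elavl1 stood at 725, 639, 628, 619 and 556 normalised reads in cKO 1 to 5, against 695, 632, 630.5, 663 and 709 in WT 1, 3, 4, 5 and 6, and did not pass the test (log2 fold change -0.08, limma adjusted p = 0.798). Reads summed over a whole gene cannot check for the loss of a few exons, so cKO and WT are used here as the labels give them. Antibody-making cells are not epithelial cells.

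An antibody heavy chain gene is assembled from a V, a D and a J segment placed before the constant genes, and a light chain gene from a V and a J segment before a kappa or lambda constant gene. The heavy constant gene sets the class, and class switching replaces IgM and IgD by IgG or IgA. Plasma cells of the gut wall mainly make IgA, which is joined by the J chain into dimers, bound by the receptor Pigr on epithelial cells and carried into the lumen. In whole tissue, fewer plasma cells and less antibody RNA per cell cannot be told apart.

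The V segments differ in sequence but share a short motif near their end, where the joined D segment (heavy chain) or J segment (light chain) begins. The last 60 bases are shown for the V segments on which the results below turn, namely the most abundant ones and the 2 that passed the genotype test, from the GENCODE M21 transcripts on GRCm38. The capitals mark the last match to TANTNNTGN on the coding strand, the only strand searched, which holds the codon of a conserved cysteine near the join (N is any base).
Ighv1-26: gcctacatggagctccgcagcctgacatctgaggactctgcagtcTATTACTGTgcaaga
Ighv3-6: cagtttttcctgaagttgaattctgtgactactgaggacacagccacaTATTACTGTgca
Ighv6-6: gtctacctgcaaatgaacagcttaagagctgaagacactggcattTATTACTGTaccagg
Igkv1-110: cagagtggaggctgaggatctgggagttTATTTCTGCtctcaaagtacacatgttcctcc
Igkv1-117: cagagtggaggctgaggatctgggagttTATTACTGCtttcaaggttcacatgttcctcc
Igkv1-135: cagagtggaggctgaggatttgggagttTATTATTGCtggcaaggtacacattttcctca
Igkv4-79: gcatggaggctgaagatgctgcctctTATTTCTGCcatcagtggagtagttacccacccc
Iglv1: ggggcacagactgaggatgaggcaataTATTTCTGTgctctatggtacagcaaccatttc
The match was found in the last 60 bases of 132 of 137 V members (96.4%), against 6.57% of 58781 protein-coding transcripts. The match is followed by 3 or 6 bases in the heavy chain segments shown and by 23 to 25 bases in the light chain segments shown. The shortest transcript of each gene was used. For Ighv3-6, the segment with 3 bases, it has 342 bases against an exonic length of 350, so its end may be incomplete. Igkv1-110 and Igkv1-117, the kappa segments with the highest means, were 96.8% identical over the whole segment. All 150 members lay at the same coordinates in the table and in that annotation.

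The members' reads rested on 16063987 to 18927440 recovered reads per library, and the members took 0.192% to 0.504% of the normalised total of a library. Of the 150 segments, 143 had a read in every library. The library WT 5 stood apart from the other 9 in the class of heavy chain and in B cell genes, and values without it are given beside the results that it moved most among those printed. The clock gene Per2 was low in cKO 3 and cKO 5 (12.7 and 16.03 normalised reads, against 342 to 749 in the others). Nothing in the labels says how mice were housed or processed together.

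The heavy chain RNA of the jejunum was almost wholly IgA in all libraries but WT 5. Igha, the IgA constant gene (chromosome 12, 113254830 to 113260236), stood at 19873, 19938, 22742, 13744 and 23828 normalised reads in cKO 1 to 5, against 33624, 28299.8, 31970.4, 25831 and 25780.5 in WT 1, 3, 4, 5 and 6. On the deposited scale all cKO values lay below all WT values, with cKO 4 the lowest of the 10. The log2 fold change was -0.56 with a standard error of 0.19 and a 95% interval of -0.96 to -0.15, which did not pass the test over all genes (limma adjusted p = 0.143). The separation depends on the scaling. Normalised totals were 13417100 in cKO 3 and 18346600 in WT 6, and as a share of them Igha was higher in cKO 3, so the groups overlapped. Scaled by library totals, the log2 fold change of Igha was -0.46 (limma adjusted p = 0.272). DESeq2 on the recovered reads put Igha just past the threshold (adjusted p = 0.0490), and the edgeR quasi-likelihood test did not (adjusted p = 0.159). Groups that do not overlap, with cKO lower, were found for 3 of 150 members (Igha, Ighv6-6 and Igkv4-79) and for 3.01% of all 14062 genes tested, so the members' 2% is near the background. No member had all cKO values above all WT values, against 1.86% of all genes.

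The sum of the 7 heavy constant genes was 20488 ± 3958 normalised reads in cKO and 30987 ± 3332 in WT (SD, n = 5 each), without overlap. Igha makes up most of this sum, so this is not a separate result. As a share of the normalised total, the heavy constant sum was higher in cKO 3 than in WT 6. The sum of the 4 light constant genes was 26052 ± 8407 in cKO and 30035 ± 6588 in WT (SD, n = 5 each), and here the groups overlapped. The summed level of all 150 segments was 58209.9 ± 14389 in cKO and 73477 ± 11551 in WT (SD, n = 5 each), with overlap and a ratio of means of 0.792. The lowest sums, 35218 in cKO 4 and 53779 in cKO 2, were both cKO, while cKO 1 at 71031 exceeded WT 3 at 65579.9 and WT 6 at 59078. This order depends on the scaling. As a share of the normalised total, cKO 3 was the highest library at 0.504% and cKO 4 the lowest at 0.192%. WT 6 at 0.322% then lay below cKO 2 at 0.345%. Sums over members carry no test, since the members were chosen with results known.

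**Figure D1:**
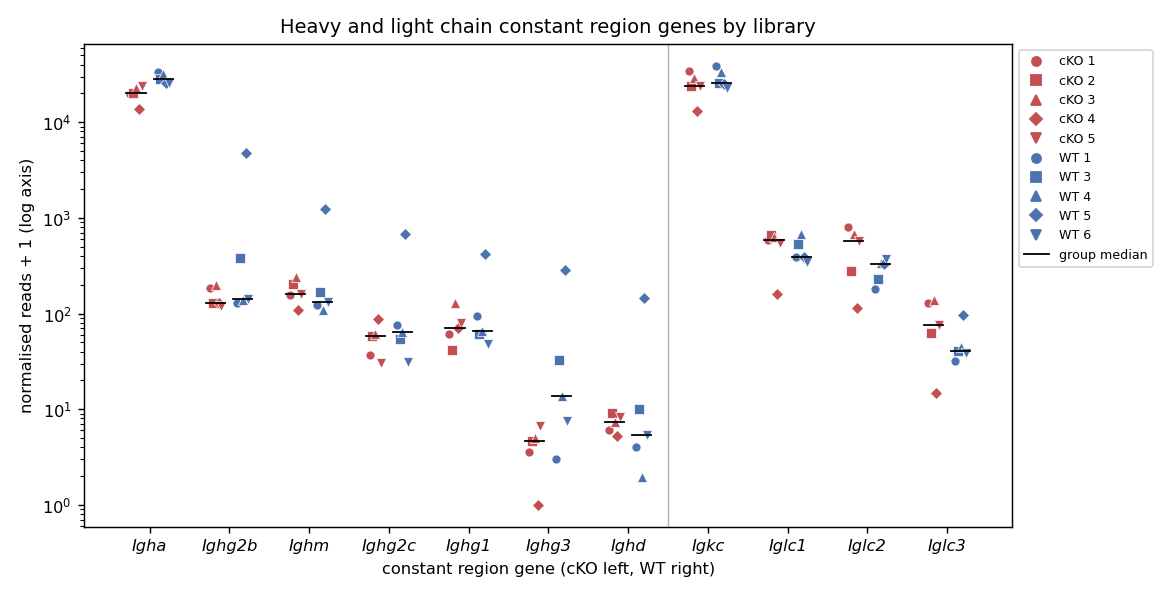
Normalised reads plus 1 on a log axis for the 11 constant region genes, heavy chains left of the line and light chains right of it. Points are libraries, cKO left and WT right within each gene, and bars are group medians. All 5 Igha points of cKO lie below those of WT, and WT 5 (blue diamonds) is the highest point for every heavy chain gene other than Igha.

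The other heavy chain classes were scarce in 9 of 10 libraries. IgA took 97.8%, 97.8%, 97.3%, 97.2% and 98.4% of heavy constant values in cKO 1 to 5, against 98.8%, 97.6%, 98.8%, 77.4% and 98.6% in WT 1, 3, 4, 5 and 6. WT 5 alone fell outside 97.2% to 98.8%. These are shares of reads, which favour long genes. With values divided by exonic length, IgA took 96.3% to 97.9% in cKO, against 74.6% in WT 5 and 97.1% to 98.5% in the other WT libraries.

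The remainder in WT 5 was mainly IgG. The 4 IgG genes took 1.40%, 1.13%, 1.66%, 2.01% and 0.963% of heavy constant values in cKO 1 to 5, against 0.874%, 1.82%, 0.855%, 18.5% and 0.853% in WT 1, 3, 4, 5 and 6. Ighg2b, an IgG subclass gene, had 186, 128, 197, 127 and 120.2 normalised reads in cKO 1 to 5, against 127, 384, 136, 4813 and 139.7 in WT 1, 3, 4, 5 and 6. The WT 5 value was thus more than 10 times that of any other library. WT 3 was the next highest for Ighg2b, and it also had the second highest values of Ighg3 and Ighd.

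The same library was highest for each of the other classes. Ighm, the constant gene of IgM, had 1222 normalised reads in WT 5, against 109 to 239 in cKO and 107 to 168 in the other 4 WT libraries. Ighd, the IgD constant gene of naive B cells, had 144 in WT 5, against 4.26 to 8.18 in cKO and 0.974 to 9.11 in the other WT libraries. Ighg1 had 421, Ighg2c 672 and Ighg3 284 in WT 5, where no other library exceeded 128, 87.4 and 31.4. Ighd and Ighg3 reached the mean of 10 only through WT 5. Igha itself, at 25831 in WT 5, was among the lower WT values.

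None of these classes passed the genotype test. The log2 fold changes were -2.48 for Ighg3 (limma adjusted p = 0.217), -1.19 for Ighg2b (limma adjusted p = 0.550), -0.80 for Ighg2c (limma adjusted p = 0.585), -0.41 for Ighg1 (limma adjusted p = 0.711), -0.36 for Ighd (limma adjusted p = 0.859) and -0.29 for Ighm (limma adjusted p = 0.840). Without WT 5 the log2 fold changes were -1.51 for Ighg3, -0.23 for Ighg2b and -0.07 for Ighg2c. Those of Ighm, Ighd and Ighg1 turned positive without it, at 0.35, 0.63 and 0.13. Ighg3 had 2.54, 3.64, 3.96, 0 and 5.61 normalised reads in cKO 1 to 5, against 2.05, 31.4, 12.7, 284 and 6.50 in WT 1, 3, 4, 5 and 6, so the groups overlapped. DESeq2 called Ighg3 lower with WT 5 (adjusted p = 0.0203) and not without it (log2 fold change -2.02, DESeq2 adjusted p = 0.132). As the WT 5 value also brought Ighg3 past the mean of 10, nothing is read from that call.

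**Figure D2:**
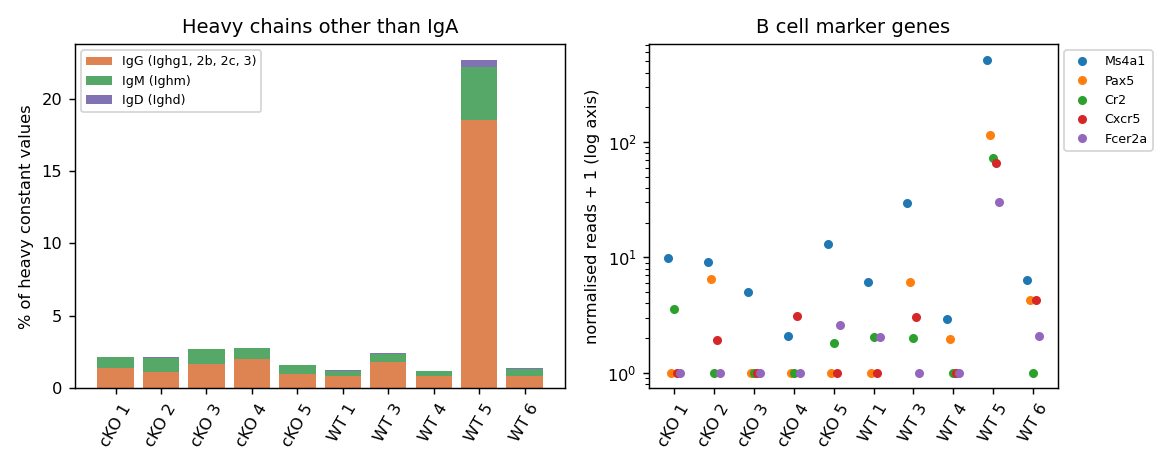
Left, the share of heavy constant values taken by IgG, IgM and IgD in each library, in %. Right, normalised reads plus 1 on a log axis for 5 marker genes of mature B cells. WT 5 holds 18.5% IgG and 3.66% IgM, and it is the highest library for all 5 markers.

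Genes of mature B cells and of lymphoid follicles were high in the same library. Ms4a1, which encodes the B cell surface protein CD20, had 517 normalised reads in WT 5 and at most 28.4 in any other library. The summed level of 5 defining markers (Ms4a1, Pax5, Cr2, Fcer2a and Cxcr5) was 3.20 to 14.6 in cKO, against 797 in WT 5 and 2.92 to 36.5 in the other WT libraries. All 5 markers had reads in WT 5. Of the 5, between 2 and 4 had no read in each cKO library and between 1 and 3 in each other WT library. Of the 12 tested genes of the B cell list, 10 were highest in WT 5, and so were 4 of 5 tested genes of the follicle and M cell list. Tested genes have a mean of 10 or more over all 10 libraries, so a gene can enter these counts through WT 5 alone. The share of all genes highest in WT 5 was not computed, and nothing is read from the counts. Gp2, a receptor of M cells over gut follicles, had no read in any cKO library, 50.9 normalised reads in WT 5 and 4.09 in WT 1. The part of these cells in the immunoglobulin values of WT 5 was not tested.

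Among light chains, kappa prevailed in every library. Igkc, the only kappa constant gene (chromosome 6, 70726435 to 70726966), had 34636, 23859, 29166, 13212 and 23956 normalised reads in cKO 1 to 5, against 38713, 25772, 33447, 25199 and 23013 in WT 1, 3, 4, 5 and 6. The groups overlapped, and the log2 fold change of -0.27 with a 95% interval of -0.80 to 0.26 did not pass the test (limma adjusted p = 0.587). Per kilobase of exon, the mean level of Igkc was 50935 normalised reads and that of Igha 9207. This rests on exon lengths of 532 bases for Igkc and 2668 for Igha. The transcripts compared here have 532 and 1100 bases, so the gap depends on the length used. The ratio of Igha to Igkc was 0.574, 0.836, 0.780, 1.04 and 0.995 in cKO 1 to 5, against 0.869, 1.10, 0.956, 1.03 and 1.12 in WT 1, 3, 4, 5 and 6. The cKO ratios thus reached lower but overlapped those of WT.

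Kappa took 95.8%, 96.0%, 95.3%, 97.9% and 95.3% of light constant values in cKO 1 to 5, against 98.5%, 97.0%, 96.9%, 96.9% and 96.8% in WT 1, 3, 4, 5 and 6. Of the 5 cKO libraries 4 lay below all WT libraries, and cKO 4, with the lowest level of Igkc, lay above 4 of the 5 WT libraries. The lambda constant genes had log2 fold changes above 0 over all 10 libraries. That of Iglc1 turned negative in 7 of the fits with 1 library left out (-0.03 without WT 5). Those fits ran from -0.10 to 0.41. Iglc1 had 585, 657, 623, 159 and 541 normalised reads in cKO 1 to 5, against 391, 537, 683, 387 and 341 in WT 1, 3, 4, 5 and 6 (log2 fold change 0.02, limma adjusted p = 0.979). Iglc2 had 807, 280.1, 675, 112 and 576 in cKO, against 178, 229, 340.1, 326 and 374 in WT (log2 fold change 0.51, limma adjusted p = 0.612). Iglc3, 94.1% identical to Iglc2, had a log2 fold change of 0.51 as well (limma adjusted p = 0.641), and of 0.78 without WT 5 (limma adjusted p = 0.502). For all 3 genes cKO 4 was the lowest of the 10 libraries, so the groups overlapped.

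The lambda V segments showed the same low library, cKO 4. Iglv1 made up 75.2% to 89.7% of lambda V values in cKO and 76.4% to 92.0% in WT. It had 1101, 753, 1048, 298 and 892 normalised reads in cKO 1 to 5, against 526, 713, 821, 549 and 413 in WT 1, 3, 4, 5 and 6 (log2 fold change 0.35, limma adjusted p = 0.585). Iglv2 had 139.9, 84.6, 103, 15.99 and 55.3 in cKO, against 16.4, 25.3, 31.2, 48.9 and 57.4 in WT. Its log2 fold change of 0.96 (95% interval -0.14 to 2.06, limma adjusted p = 0.332) passed the test only when cKO 4, its lowest library, was left out, among the settings tried (1.45, limma adjusted p = 0.0390). Iglv3 had a log2 fold change of 0.69 (limma adjusted p = 0.5). All 3 were highest in cKO 1.

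**Figure D3:**
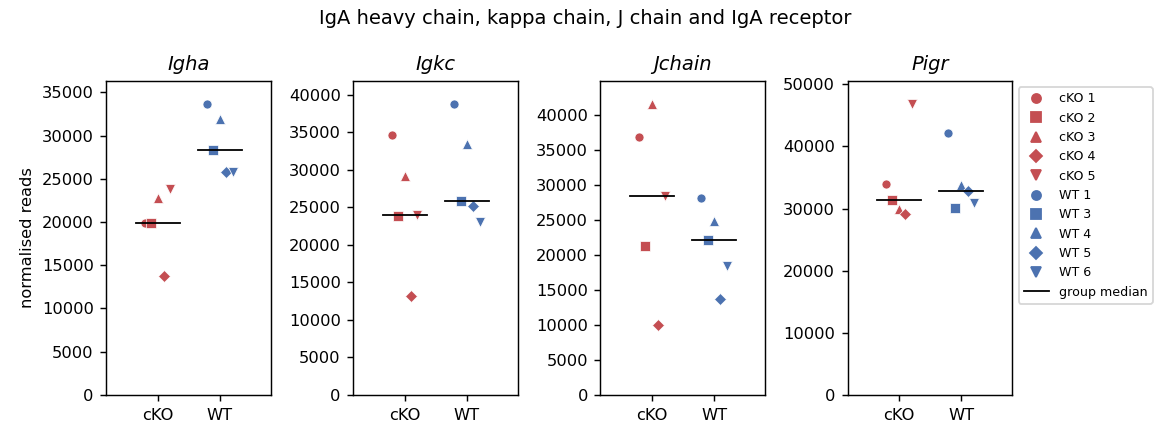
Normalised reads per library of Igha, Igkc, Jchain and Pigr, each on its own axis from 0, with cKO left, WT right and bars at group medians. The groups separate for Igha alone, and cKO 4 is the lowest cKO library in each panel.

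The partner genes of IgA overlapped between the groups. Jchain, whose protein joins IgA into dimers, had 36784, 21261, 41497, 10051 and 28439 normalised reads in cKO 1 to 5, against 28082, 22054, 24771, 13744 and 18362 in WT 1, 3, 4, 5 and 6 (log2 fold change 0.25, 95% interval -0.47 to 0.97, limma adjusted p = 0.721). The ratio of Igha to Jchain was 0.540, 0.938, 0.548, 1.37 and 0.838 in cKO 1 to 5, against 1.197, 1.28, 1.29, 1.88 and 1.40 in WT 1, 3, 4, 5 and 6. Of 5 cKO ratios 4 were below the lowest WT ratio, and cKO 4 was inside the WT range. Pigr, the receptor that carries IgA through the epithelium, averaged 34237 ± 7251 in cKO and 33989.9 ± 4818 in WT (SD, n = 5 each; limma adjusted p = 0.997). The ratio of Jchain to Igkc was 1.06, 0.891, 1.42, 0.761 and 1.19 in cKO 1 to 5, against 0.725, 0.856, 0.741, 0.545 and 0.798 in WT 1, 3, 4, 5 and 6, again with cKO 4 alone inside the WT range. Mzb1, a chaperone of antibody assembly in plasma cells, averaged 448 ± 132 in cKO and 412 ± 126 in WT (n = 5 each, ± SD; log2 fold change 0.10, limma adjusted p = 0.868).

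Of 16 genes on the plasma cell list, 0 passed the limma test in either direction (3 had an unadjusted p under 0.05, and edgeR and DESeq2 called 0), and their median log2 fold change was 0.13, beside 0.010 over all genes tested. The smallest p-values belonged to Creld2, an endoplasmic reticulum protein gene (log2 fold change 0.51, limma adjusted p = 0.182), and to Sec11c, a subunit gene of the signal peptidase (log2 fold change 0.53, limma adjusted p = 0.256). The summed level of the list was 22163 to 51858 normalised reads in cKO and 24892 to 39637 in WT, with cKO 4 lowest. Over all genes tested, 1.32% were called and 18.6% had an unadjusted p under 0.05. On the B cell list, 1 of 12 tested genes was called, and 2 had an unadjusted p under 0.05. Spib, a transcription factor gene of B cells and M cells, fell to 6.36, 22.7, 15.1, 30.9 and 16.03 in cKO 1 to 5, against 58.3, 98.2, 57.5, 310.2 and 49.8 in WT 1, 3, 4, 5 and 6 (log2 fold change -2.36, limma adjusted p = 0.0354). The call held without WT 5 (log2 fold change -1.91, limma adjusted p = 0.0446), without cKO 2 and without cKO 4. It was lost without any one of cKO 1, cKO 3, cKO 5, WT 1, WT 3, WT 4 or WT 6 (log2 fold changes -2.56 to -2.05, limma adjusted p = 0.0521 to 0.0997) and without cKO 3 and cKO 5 together (-2.32, limma adjusted p = 0.191). The other lists of germinal centre and class switching (5 tested genes), IgA transport, homing and survival (12), follicle and M cell (5), T cell (11) and myeloid and mast cell genes (9) held 0 genes called by limma each. In them 1, 2, 1, 1 and 0 genes had an unadjusted p under 0.05, edgeR called 0, and DESeq2 called 1, Cd40.

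In those lists, Rgs13, a germinal centre gene, had a log2 fold change of -1 (limma adjusted p = 0.192), and Ung, whose enzyme acts in class switching, 0.71 (limma adjusted p = 0.318). Cd40, a receptor through which T cells help B cells, had 38.1, 36.4, 87.2, 59.7 and 39.3 normalised reads in cKO 1 to 5, against 11.3, 6.08, 30.2, 33.9 and 23.8 in WT 1, 3, 4, 5 and 6. It did not overlap between groups but did not pass the test (log2 fold change 1.41, limma adjusted p = 0.104; DESeq2 adjusted p = 0.0370). Tnfsf13b, the survival factor BAFF, had a log2 fold change of -0.53 (limma adjusted p = 0.256). Ccl20 and Cxcl13, chemokine genes of the follicle list, had log2 fold changes of -2.45 and -0.98 (limma adjusted p = 0.241 and 0.466). Both were highest in WT 5, without which the log2 fold changes were -1.77 and -0.26 (limma adjusted p = 0.330 and 0.800). With 1 library left out in turn they ran from -3.26 to -1.77 for Ccl20 and from -1.35 to -0.26 for Cxcl13. The T cell genes Gzma and Cd2 had 0.48 and -0.55 (limma adjusted p = 0.191 and 0.333), and the macrophage genes Adgre1 and Cd68 0.40 and 0.25 (limma adjusted p = 0.303 and 0.597).

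The epithelial genes of the jejunum were abundant in every library. Lct, the lactase gene, had 5917 to 14726 normalised reads in cKO and 10409 to 17139.5 in WT (log2 fold change -0.63, limma adjusted p = 0.180), and Epcam, an epithelial adhesion gene, had a log2 fold change of -0.36 (limma adjusted p = 0.374). The jejunal list held 0 called genes of 10 by limma, edgeR and DESeq2, and 1 had an unadjusted p under 0.05. Of the 3 ileal genes only Slc10a2, the ileal bile acid transporter, was abundant enough to test, at 11.1 to 221 normalised reads in cKO and 124 to 242 in WT (log2 fold change -1.16, limma adjusted p = 0.464). Its low values, 11.1 and 26.5, were those of cKO 3 and cKO 5.

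The V values were spread over many segments in every library, as shares of reads not divided by length. Of 137 V members, 131 had a read in every library. Within Igh, the most abundant V segment took 6.15%, 6.74%, 5.78%, 8.32% and 6.61% of the V values in cKO 1 to 5, against 8.35%, 7.04%, 5.75%, 7.62% and 7.18% in WT 1, 3, 4, 5 and 6. It was Ighv1-26 in 6 libraries and Ighv3-6 or Ighv1-18 in the rest. The 10 most abundant segments took 37.7% to 46.5% in cKO and 37.9% to 42.2% in WT.

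The effective number of segments, the inverse Simpson index, is the number of equally abundant segments that would give the same sum of squared shares. For the 61 Igh segments it was 32.1, 32.2, 40.7, 33.4 and 36.3 in cKO 1 to 5, against 33.0, 35.6, 38.4, 37.8 and 37.0 in WT 1, 3, 4, 5 and 6. For the 73 Igk segments it was 26.0, 32.7, 28.0, 22.9 and 35.3 in cKO 1 to 5, against 27.9, 25.4, 35.6, 30.5 and 28.3 in WT 1, 3, 4, 5 and 6. The groups overlapped at both loci, and the means differed by -1.38 (Igh) and -0.61 (Igk), less than the spread within a group. The fewest V reads were 1220 for Igh in cKO 1 and 4951 for Igk in cKO 4, and these libraries had the lowest effective number of their locus. Thinned to those depths, each library was expected to show 59 to 60.96 of 61 Igh and 71.4 to 73 of 73 Igk segments.

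**Figure D4:**
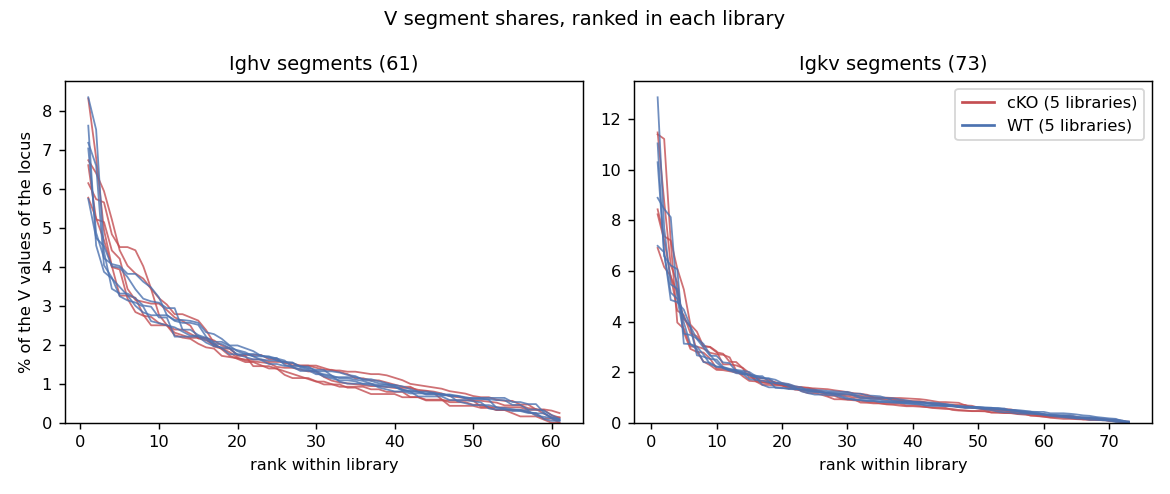
Share of the V values of the locus, in %, against the rank of the segment within each library, for the 61 Igh and 73 Igk V members. Red lines are the 5 cKO libraries and blue lines the 5 WT libraries. The lines of both groups run together, with top shares of at most 8.35% for Igh and 12.9% for Igk.

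At the kappa locus, Igkv1-110 and Igkv1-117 took turns as the most abundant segment, at 5 libraries each. Igkv1-110 (chromosome 6, 68270485 to 68271267) had 1319, 449, 828, 592 and 554 normalised reads in cKO 1 to 5, against 882, 923, 745, 636 and 727 in WT 1, 3, 4, 5 and 6 (log2 fold change -0.16, limma adjusted p = 0.758). Igkv1-117 (chromosome 6, 68121046 to 68121827) had 1006, 513, 598, 601 and 659.7 in cKO 1 to 5, against 928, 379.7, 718, 983 and 409 in WT 1, 3, 4, 5 and 6 (log2 fold change 0.05, limma adjusted p = 0.936). As their printed ends show, the pair is near-identical, and 50.9% and 49.9% of their 50-base windows occur in another immunoglobulin gene, so reads may be split between them. Igkv1-135, Igkv10-96, Igkv3-4 and Igkv6-15 followed, with means of 1309, 1366, 788 and 777 normalised reads per kilobase and log2 fold changes of -0.34, 0.21, -0.04 and -0.18 (limma adjusted p = 0.612, 0.599, 0.960 and 0.863).

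At the heavy chain locus, Ighv1-26 (chromosome 12, 114788372 to 114788805) had 95.4, 81.8, 147, 163 and 225 normalised reads in cKO 1 to 5, against 278, 85.1, 113, 314 and 134 in WT 1, 3, 4, 5 and 6 (log2 fold change -0.28, limma adjusted p = 0.718). Ighv3-6 averaged 111 ± 44.9 in cKO and 149 ± 77.0 in WT (SD, n = 5 each; limma adjusted p = 0.655). Ighv1-18 averaged 82.4 ± 53.8 in cKO and 121 ± 22.0 in WT (SD, n = 5 each; limma adjusted p = 0.238). Ighv5-17, whose highest library was 1.54 times the median library, the lowest such ratio among the 6 most abundant Igh segments, averaged 59.8 ± 34.1 in cKO and 109 ± 23.7 in WT (n = 5 each, ± SD; log2 fold change -1.03, limma adjusted p = 0.129). It was called lower without cKO 3 and cKO 5 together (-1.61, limma adjusted p = 0.0187). Ighv9-3 and Ighv1-82 had log2 fold changes of -0.47 and 0.44 (limma adjusted p = 0.494 and 0.430).

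The rank correlations of V segments between libraries overlapped within and between genotypes. Across the 61 Igh segments, Spearman's rho between libraries ran from 0.416 to 0.652 within cKO, 0.548 to 0.676 within WT and 0.396 to 0.707 between the groups. Across the 73 Igk segments it ran from 0.657 to 0.790 within cKO, 0.740 to 0.824 within WT and 0.675 to 0.843 between them. Segments are not independent replicates, and they share mappability and length across libraries. By family, the 31 Ighv1 segments took 51.2% to 59.6% of Igh V values in cKO and 49.7% to 59.3% in WT. The 6 Igkv1 segments took 18.6% to 28.0% of Igk V values in cKO and 19.8% to 26.6% in WT, and the 18 Igkv4 segments 9.74% to 14.6% in cKO and 11.5% to 17.1% in WT.

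Only 2 members, both V segments, passed the genotype test by limma, and both were lower in cKO. Ighv6-6 (chromosome 12, 114434788 to 114435244) fell to 43.2, 14.6, 31.7, 8.53 and 30.5 normalised reads in cKO 1 to 5, against 56.3, 81.0, 128, 109 and 62.8 in WT 1, 3, 4, 5 and 6. The groups did not overlap, and the log2 fold change was -1.86 with a standard error of 0.39 (limma adjusted p = 0.0326). Igkv4-79 (chromosome 6, 69042972 to 69043505) fell to 1.27, 7.28, 6.34, 8.53 and 9.62 in cKO 1 to 5, against 22.5, 22.3, 21.4, 32.9 and 19.5 in WT 1, 3, 4, 5 and 6 (log2 fold change -1.85, standard error 0.43, limma adjusted p = 0.0465). Its values are only a few reads per library in cKO. The mean of Igkv4-79 was 6.61 in cKO and 23.7 in WT, so it reached the mean of 10 only through WT. Of its 50-base windows, 55.3% occur in another immunoglobulin gene, against 19.2% for Ighv6-6. Without WT 5 neither passed (limma adjusted p = 0.0697 for Ighv6-6 and 0.110 for Igkv4-79), with log2 fold changes of -1.76 and -1.73. Ighv6-6 was also lost without WT 3, WT 4, WT 6 or cKO 3 (limma adjusted p = 0.0822, 0.0946, 0.0587 and 0.0548), and Igkv4-79 without any library other than cKO 1 or cKO 4 (limma adjusted p = 0.0515 to 0.112). Without cKO 3 and cKO 5 together the adjusted p-values were 0.0636 for Ighv6-6 and 0.0941 for Igkv4-79 (limma).

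These 2 calls are 1.33% of the 150 members, beside 0.882% of all genes tested called lower in cKO and 1.32% called in either direction, which is near the background. Members called higher numbered 0, beside 0.441% of all genes. The edgeR test on the recovered reads called the same 2 segments. DESeq2 called 5 lower (Igha, Ighg3, Ighv5-9, Ighv6-6 and Igkv4-79) and 1 higher (Igkj5). Of these, Ighv5-9 (mean 9.43 in cKO and 25.6 in WT), Igkv4-79 and Igkj5 reached the mean of 10 only through their higher group. Ighg3 reached it only through WT 5. Without WT 5 DESeq2 called 3 lower (Ighv6-6, Igkv4-79 and Igkv12-41) and 1 higher (Igkj5). At an unadjusted p under 0.05 stood 19 members, or 12.7%, beside 18.6% of all genes.

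The fitted log2 fold change was below 0 for 108 of 150 members, with a median of -0.25, beside 0.010 over all genes tested. Scaling by library totals, which moves the median of all genes to 0.11, gave a median of -0.15 for the members. By class, it was below 0 for all 7 heavy constant genes, for Igkc, for 50 of 61 Igh V segments (median -0.38) and for 49 of 73 Igk V segments (median -0.16). Without WT 5 it was above 0 for Ighm (0.35), Ighd (0.63) and Ighg1 (0.13), and Ighd and Ighg3 were members only through WT 5. With all libraries the log2 fold change was above 0 for all 3 lambda V segments and all 3 lambda constant genes. Of these, Iglc1 turned negative in 7 of the fits with 1 library left out. The members' median was -0.14 without WT 5, -0.13 without cKO 4 and -0.53 without cKO 3 and cKO 5. Members share libraries and often cells, so these counts carry no test.

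**Figure D5:**
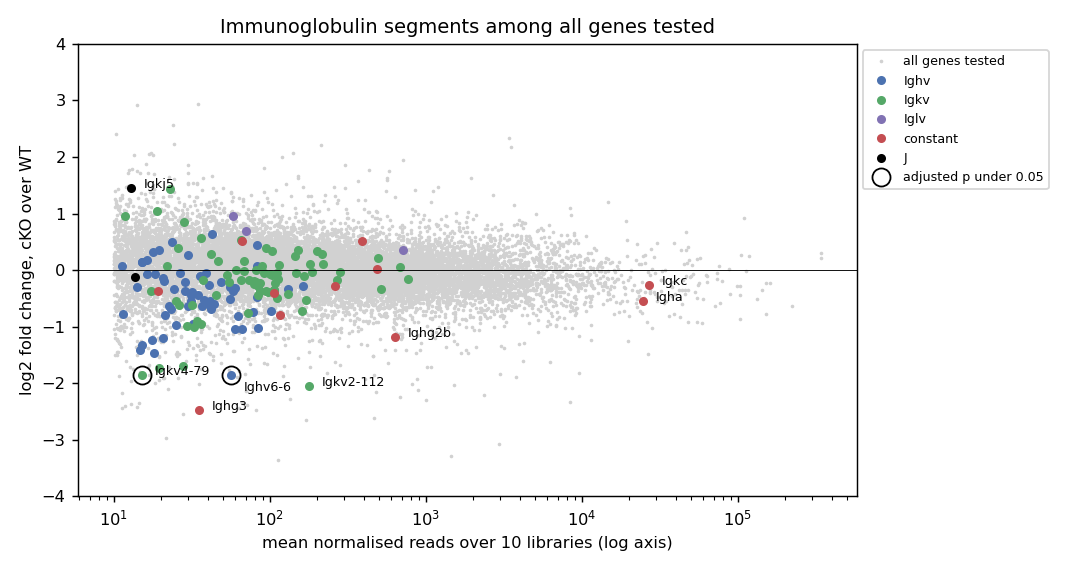
Log2 fold change of cKO over WT against the mean normalised reads over 10 libraries (log axis) for all 14062 genes tested (grey) and the 150 members (coloured by kind). Circles mark the members with an adjusted p under 0.05, Ighv6-6 and Igkv4-79, and 1 gene lies beyond the plotted range of 4 log2 units.

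The most negative fold changes that did not pass were those of Ighg3, Igkv2-112 and Igkv4-58. Igkv2-112, none of whose 50-base windows occurs in another immunoglobulin gene, had 229, 173, 17.4, 15.99 and 48.9 normalised reads in cKO 1 to 5, against 348, 285, 353, 109.7 and 198 in WT 1, 3, 4, 5 and 6 (log2 fold change -2.06, 95% interval -3.84 to -0.28, limma adjusted p = 0.212). Its low values lie in cKO 3, cKO 4 and cKO 5, and cKO 1 and cKO 2 lie within the WT range. Igkv4-58 had 0 to 27.7 in cKO and 6.50 to 60.4 in WT (log2 fold change -1.73, limma adjusted p = 0.280).

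The largest positive fold change belonged to a J segment. Igkj5 (chromosome 6, 70723886 to 70723927) had 25.4, 22.7, 19.0, 6.40 and 23.2 normalised reads in cKO 1 to 5, against 9.20, 5.06, 5.85, 9.98 and 2.17 in WT 1, 3, 4, 5 and 6. Of 5 cKO libraries 4 exceeded every WT library, and cKO 4 lay among the WT values. The mean of Igkj5 was 19.4 in cKO and 6.45 in WT, so it reached the mean of 10 only through cKO. The log2 fold change of 1.45 (95% interval 0.47 to 2.44) did not pass the test (limma adjusted p = 0.121) and did so without cKO 4 (1.79, limma adjusted p = 0.0354). The other J member, Iglj1, had 4.26 to 18.2 in cKO and 8.18 to 19.5 in WT (log2 fold change -0.12, limma adjusted p = 0.906).

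J segments are short, as the kappa set and Iglj1 show, with capitals at the match to TTCGGNNNNGGNAC on the coding strand.
Igkj1: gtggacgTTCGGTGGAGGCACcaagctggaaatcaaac
Igkj2: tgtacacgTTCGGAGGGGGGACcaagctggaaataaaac
Igkj3: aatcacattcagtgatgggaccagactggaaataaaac
Igkj4: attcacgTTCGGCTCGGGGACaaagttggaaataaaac
Igkj5: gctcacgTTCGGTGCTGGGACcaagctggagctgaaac
Iglj1: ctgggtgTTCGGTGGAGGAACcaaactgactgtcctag
These letters, which encode the phenylalanine and glycines that follow the join, were found in 6 of 12 J rows of the table and in the last 60 bases of 0.0017% of 58781 protein-coding transcripts. They do not occur in Igkj3, which is not used in functional kappa chains. A read that crosses a join has no continuous match in the genome, and the sources used here do not say how such reads were placed.

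The other members among the 5 most positive fold changes were Igkv1-88, Igkv7-33, Iglv2 and Igkv3-3. Igkv1-88 had 31.8, 17.3, 39.6, 21.3 and 44.9 normalised reads in cKO 1 to 5, against 3.07, 4.05, 31.2, 28.9 and 7.58 in WT 1, 3, 4, 5 and 6 (log2 fold change 1.44, limma adjusted p = 0.192). Igkv7-33 was highest in WT 5 at 78.8, although its log2 fold change was 1.04 (limma adjusted p = 0.559), while its mean was 18.0 in cKO and 20.0 in WT. Without WT 5 its WT mean was 5.32 and its log2 fold change 1.87 (limma adjusted p = 0.194), and with any 1 library left out the log2 fold change ran from 0.29 to 1.87.

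A few segments were high in a single library. Igkv3-3 had 95.4, 7.28, 0, 3.20 and 0 normalised reads in cKO 1 to 5, against 3.07, 5.06, 3.90, 0 and 0 in WT 1, 3, 4, 5 and 6, so cKO 1 stood at 30.4 times the median library. It reached the mean of 10 only through cKO 1. No other V member was above 10 times the median library. The highest library was more than 3 times the median for 14 of 61 Igh segments and 13 of 73 Igk segments, and the median of this ratio was 2.27 for Igh and 2.12 for Igk. WT 5 was the highest library for 21 of 61 Igh and 7 of 73 Igk segments.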

How the data were processed

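Total RNA of proximal jejunum was sequenced in 10 libraries, 5 labelled cKO and 5 labelled WT. Per the submitters' processing notes the tools were CASAVA, HISAT2 2.0.5, featureCounts 1.5.0-p3 and DESeq2 1.20.0, with build mm10. The deposited values are a normalised signal per gene. The values themselves show that each library's reads were divided by a single size factor, and whole reads came back within 0.001 for 100% of values. Another 2 per-sample columns have no label and were not used. The sources used here do not state the strand setting or how multiply matching reads were handled.

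Values were fitted as log2(value + 1) with limma 3.58.1 (trend, robust) in R 4.3.3 on the 14062 genes with a mean of 10 or more, with Benjamini-Hochberg adjustment over all of them and a threshold of 0.05. Such fold changes understate changes of low genes. Deposited values are not counts, so edgeR 4.0.16 (quasi-likelihood, TMM) and DESeq2 1.42.0 on recovered reads were alternatives, with other scalings, filters, pseudocounts of 0.5 and 5 and left-out libraries. In simulated 5 against 5 data over about 14056 genes, limma recovered 8.8% of changes of 1.5-fold, 44.8% of those of 2-fold and 90.8% of those of 4-fold. The fitted difference of Igha was 1.47-fold, a size that the test would mostly miss. No pair of libraries, within or between groups, agreed within sampling noise (chi-square per degree of freedom at least 21.4). Replicates are separate mice, per the series' design text. Intervals are at 95%, and the depth limits the precision of segments with few reads.

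Members and lists were chosen with earlier results of these data known. Named were every constant gene, the 6 most abundant V segments per locus, the top V segment of each library, called members, the 5 largest rises and falls, Jchain, Pigr, Mzb1 and the leading genes of each list. Genes named outside this rule were chosen after their values were seen: the markers high in WT 5, Per2, Iglj1 and Ighv5-9. Transcript comparisons used GENCODE M21 with Biopython 1.88, and figures matplotlib 3.10.9. The 50-base windows were compared among immunoglobulin transcripts alone.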

Additional observations from a re-analysis of the deposited data

Results flagged for a closer look

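In 22 of 96 sets of 5 libraries tested, 1 library lay far from the others of its group, by the gap to its neighbour over the group's whole range. Chance gives about 1 in 20 sets only for independent, normally distributed values. These are untransformed reads and shares of the same genes, some named for their large fold changes. No excess over chance is therefore read from the count. The values share libraries, and 13 of the 22 were WT 5. Ighg3 and Ighd reached the mean of 10 only through WT 5, and Igkv3-3 only through cKO 1, so their high values were fixed by the choice of members. Without these 3 genes and the IgD share, it was 18 of 88 sets, 10 of them in WT 5. In that library the heavy constant genes stood above the other WT libraries at 4813 normalised reads for Ighg2b, 1222 for Ighm, 672 for Ighg2c, 421 for Ighg1, 284 for Ighg3 and 144 for Ighd. The IgA share was low at 77.4%, and the shares of IgG at 18.5%, IgM at 3.66% and IgD at 0.430% were high. Iglc3 at 94.8, Igkv7-33 at 78.8 and Igkv4-79 at 32.9 normalised reads were also above the other WT libraries.

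In cKO 4, Iglc1 at 159 and Mzb1 at 221 normalised reads were low and the kappa share at 97.9% was high. In cKO 5, Ighv1-18 at 176 and Pigr at 46776 were high, and in cKO 1 so was Igkv3-3 at 95.4. Among WT libraries the kappa share was high in WT 1 at 98.5%, Mzb1 was high in WT 4 at 630.5, and the effective number of lambda V segments was high in WT 6 at 1.64.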

How the results depend on the processing

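By limma over all 10 libraries, 2 segments were called lower and 0 higher, and 186 of 14062 genes were called. DESeq2 called 5 segments lower and 1 higher, and 750 genes. With library totals, totals without immunoglobulin and mitochondrial rows, a mean of 50 or more, or a pseudocount of 0.5, 1 segment was called lower, Ighv6-6. Without cKO 3 and cKO 5 the calls were 1 segment and 56 genes, without WT 5 as well 1 and 37, and with edgeR without WT 5 they were 0 and 74; the 1 segment was Ighv5-17 both times. With DESeq2 without WT 5 there were 3 segments lower, 1 higher and 466 genes. The last 3 fits were chosen after seeing the data. An adjusted p of 0.1 gave 512 genes. Leaving out 1 library in turn gave 0 to 2 segments lower, 0 to 2 higher and 30 to 611 genes. The replicate numbers shared by 8 libraries were not found to pair mice (correlations of deviations -0.105 to 0.118); 134 genes were called with the replicate block and 89 without it on those libraries, with 0 segments lower in both. Igha passed with DESeq2 (-0.53) and in no other setting tried; with 1 library left out it ran from -0.62 to -0.43. Counting every row above 0 moved the mean number of V segments with a read, cKO minus WT, from -0.6 to -3.4 for Igh and from 0 to -1 for Igk; thinned to the smallest library, the differences over every row were -0.96 and -1.54. Signs turned for uncalled log2 fold changes, whose cause was not tested. With edgeR they were -0.015 for Igkv1-117, 0.11 for Igkv3-4, -0.17 for Igkv7-33 and 0.017 for Pigr, and with DESeq2 -0.014, 0.11, -0.15 and 0.014. With library totals Elavl1 was 0.023, Igkv3-4 0.057 and Pigr 0.10, and with the reduced totals 0.039, 0.073 and 0.11. On the 8 libraries, with and without the replicate block, Iglc1 was -0.20, Igkv1-117 -0.015, Igkv3-4 0.10 and Mzb1 -0.024. Without cKO 3 and cKO 5, Iglc1 was -0.20, Igkv10-96 -0.0092, Jchain -0.063, Mzb1 -0.12 and Slc10a2 0.16, and without WT 5 as well Iglc1 was -0.25, Ighm 0.21, Ighg2c 0.094, Ighd 0.54, Jchain -0.21, Mzb1 -0.11 and Slc10a2 0.067. With edgeR without WT 5, Ighg1 was 0.20, Ighm 0.40, Igkv3-4 0.29 and Pigr 0.0067, and with DESeq2 without WT 5 they were 0.19, 0.39, 0.28 and 0.00097, and 0.53 for Ighd. With 1 library left out, values ran from -0.92 to 0.63 for Ighd, -0.66 to 0.13 for Ighg1, -0.52 to 0.35 for Ighm, -0.13 to 0.21 for Igkv1-117, -0.10 to 1.54 for Igkv3-3, -0.29 to 0.19 for Igkv3-4, -0.49 to 0.087 for Igkv6-15, -0.10 to 0.41 for Iglc1 and -0.12 to 0.079 for Pigr. Few reads limit Ighg3, Ighd and Igkv4-79 in cKO, and Igkj5 in WT.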
